A study of Mus musculus with 6 samples.

Results

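Apaf1, which encodes the scaffold of the apoptosome, was measured with 8 other genes of the mitochondrial death pathway in RNA from mouse brain synaptosomes, the nerve terminals that pinch off when brain is homogenised. The set was named by gene symbol: Apaf1, Casp9, Bax, Bak1, Bcl2, Bcl2l1, Bcl2l11, Bid and Xiap, 9 genes in all. The array carried 11 probes whose annotated gene was one of these symbols, out of 55681 different non-control probes. Of these probes, 9 were above background by the scanner's criterion on 3 or more of the 6 arrays, so 8 of the 9 genes were among the 20975 genes compared. Both probes of Bcl2l11 stayed below that level.

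The series compared 3 knock-in samples with 3 wild-type samples, each hybridised to its own one-colour Agilent array. Its title concerns the FMR1 transcript in FXTAS, a late-onset disorder of movement caused by an FMR1 premutation. The labels name neither the allele nor the strain or age of the mice, and are silent on whether each sample is a separate animal, so an error given here is the spread between these samples and may be technical. For 3 samples the genotype field says knock-out while the description and design text say knock-in, and the latter name is used.

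In the mitochondrial pathway of cell death, BAX and BAK1 open the outer mitochondrial membrane and let cytochrome c escape. Cytochrome c binds APAF1, which assembles into a wheel that recruits and activates caspase-9, and caspase-9 in turn cleaves the executioner caspases. BCL2 and BCL-XL, the main product of Bcl2l1, restrain BAX and BAK1, while the BH3-only proteins BIM, from Bcl2l11, and BID counteract that restraint. XIAP binds and inhibits caspase-9 and the executioner caspases. In the brain, levels of APAF1 fall as neurons mature, whereas BCL-XL is the abundant survival factor of adult neurons.

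An array reads a gene only through its probe, so the stretch that was read is part of the measurement. The first 30 bases of a probe are shown for 2 BCL2 family probes, because they lie in coding sequence: those of the earlier Bcl2l1 probe, and those of the later Bcl2l11 probe in the BH3 domain with which BIM binds its partners. Capitals mark the codons of the glycine and aspartate of the BH3 core in Bcl2l11.
Bcl2l1 earlier probe: attggtgagtcggattgcaagttggatggc
Bcl2l11 later probe: ggatcGGAGACgagttcaacgaaacttaca
Coordinates here come from the annotation in the scanner files, build mm9. The earlier Bcl2l1 probe starts at base 674 on chromosome 2 at 152655185 to 152655244 (minus strand). The later Bcl2l11 probe starts at base 682 and its 60 bases are spread over 11096 bases of chromosome 2, from 127972893 to 127983988 (plus strand), so it crosses a splice junction.

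The arrays differed in brightness by slide. The 75th percentile of the processed signal was between 823 and 910 on the 4 arrays of slide 1, where wild-type replicate 3 lay beside the 3 knock-in samples, and 578 and 580 on the 2 arrays of slide 2, which held wild-type replicates 1 and 2. Signals are therefore given first as scanned and then on a log2 scale relative to that percentile of each array. Fmr1 read 2.08 to 2.27 on this scale in knock-in and 1.33 to 1.42 in wild type. All 7 neuronal and nerve terminal markers examined, among them Snap25 and Syt1, were well above background on all 6 arrays, and so were all 6 astrocyte, all 6 oligodendrocyte and all 7 microglia markers. In such bulk RNA fewer cells or terminals of a type and less RNA in each cannot be told apart.

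Apaf1 was brighter on the knock-in arrays. Its 1 probe, which starts at base 5973 of the transcript on chromosome 10 at 90452580 to 90452639 (minus strand), scanned at 240, 264 and 207 in knock-in replicates 1 to 3. It scanned at 78.2, 58.1 and 100 in wild-type replicates 1 to 3. No wild-type array reached the dimmest knock-in array, and all 6 arrays were well above background. Relative to the 75th percentile the probe averaged -1.93 ± 0.18 over the knock-in arrays and -3.08 ± 0.22 over the wild-type arrays (log2, SD, n = 3 each). That is a difference of 1.15 (moderated SE 0.16 from limma's fit over all genes), or 2.22-fold. The lowest knock-in array lay 0.75 above the highest wild-type array, a gap wider than the range within either group (0.35 in knock-in and 0.43 in wild type).

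This difference is the value for which Apaf1 and its pathway were singled out, so it is a description and carries no test. It lay at percentile 99.4 of the differences of all genes, whose median was -0.05. In the same fit 0.00954% of genes passed an adjusted p of 0.05, 2 of 20975, and Apaf1 was not one of them. Wild-type replicate 3, which shared slide 1 with the knock-in arrays, read -3.04, between the other wild-type arrays at -2.89 and -3.32. Against that array alone, which is what a block for slide amounts to, the difference was 1.11 (SE 0.24). The probe was dim, and its difference depended on the processing: it was 0.64 with normexp correction of the raw signal and 0.86 in the authors' value table. Here and below, the normexp correction also added an offset of 50 to each signal, which by itself makes log2 differences of dim probes smaller.

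**Figure D1:**
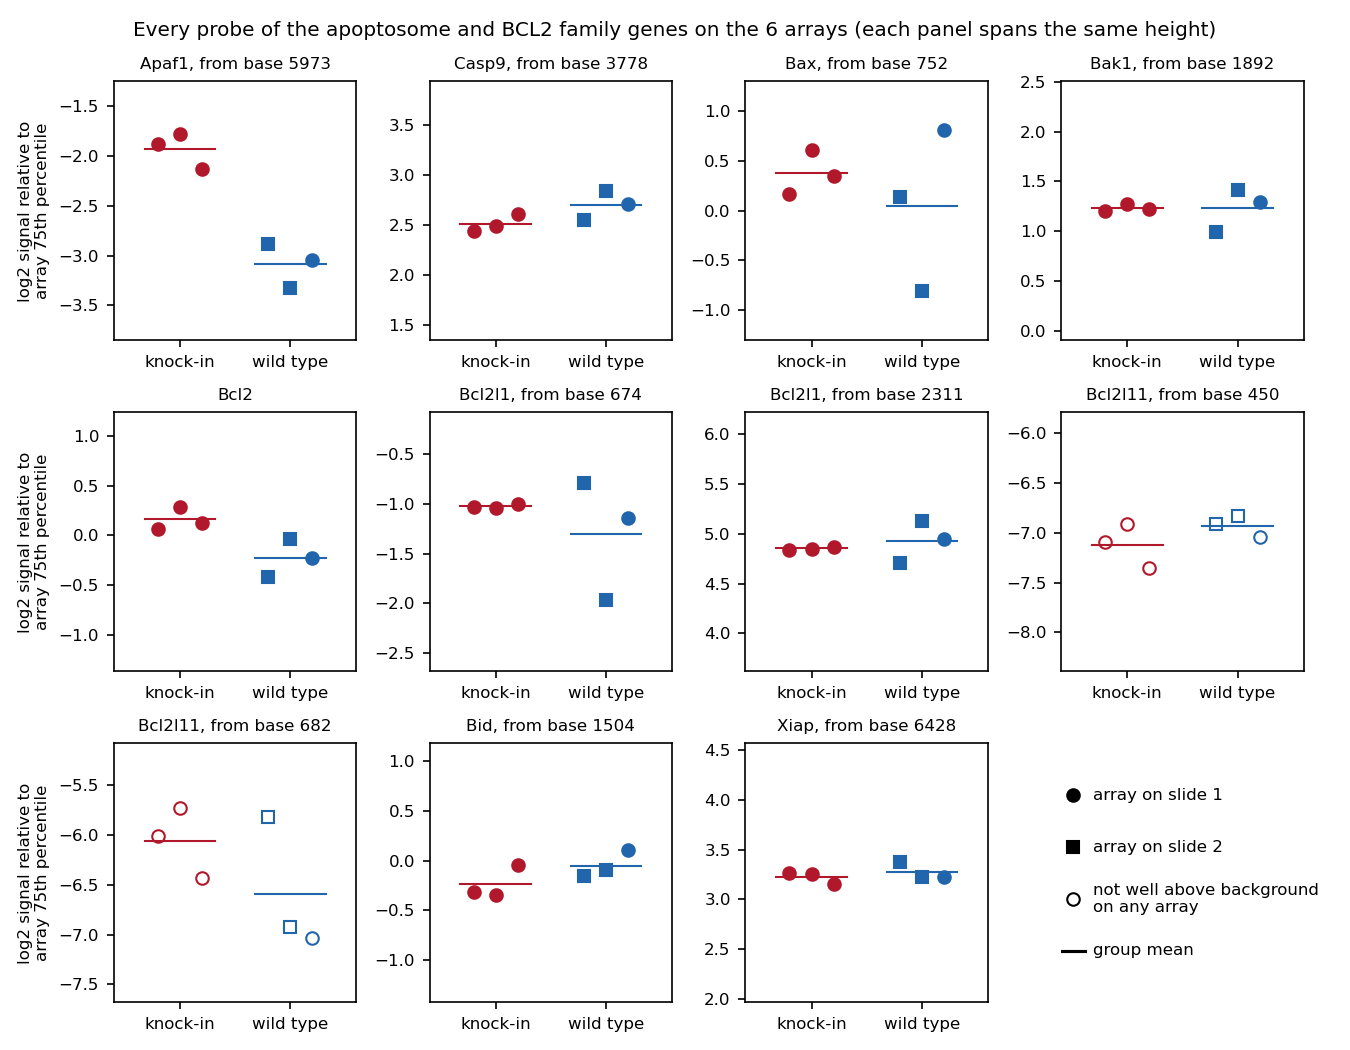
Log2 signal relative to each array's 75th percentile for all 11 probes of the 9 genes, with the 3 knock-in arrays in red and the 3 wild-type arrays in blue. Points are arrays, lines are group means, squares are the 2 arrays of slide 2 and open symbols are probes not well above background. Apaf1 and Bcl2 are the genes whose groups do not overlap, and wild-type replicate 2 stands low for Bax and for the earlier Bcl2l1 probe.

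Casp9, the initiator caspase that the apoptosome activates, did not go with Apaf1. Its probe starts at base 3778 on chromosome 4 at 141371773 to 141371832 (plus strand). The processed signal was 4780, 5110 and 5560 in knock-in against 3400, 4170 and 5400 in wild type. After scaling the order turned, with 2.44, 2.49 and 2.61 in knock-in against 2.55, 2.85 and 2.71 in wild type, and the groups overlapped. The scaled log2 difference was -0.19 (SE 0.12), and it stayed between -0.27 and -0.12 under the 16 alternatives tried, with -0.12 without wild-type replicate 2.

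Xiap, the caspase inhibitor, varied least among the members in wild type. The probe starts at base 6428 on chromosome X at 39462720 to 39462779 (plus strand) and scanned at 8460, 8660 and 8100 in knock-in against 6010, 5420 and 7700 in wild type. Relative to the 75th percentile these were 3.26, 3.25 and 3.15 against 3.38, 3.22 and 3.23. The groups overlapped, and the difference of -0.05 (SE 0.10) was close to the median over all genes, also -0.05. Of the 3 genes that make and restrain the active apoptosome, Apaf1 alone had groups that did not overlap. Over all genes, 20.3% had no overlap in either direction. Apaf1 was singled out for its difference, so nothing is read from this count.

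Bcl2, the founding survival gene of its family, was the other member whose groups did not overlap. Its probe scanned at 926, 1110 and 994 in knock-in against 434, 567 and 703 in wild type. The scaled values were 0.07, 0.28 and 0.13 in knock-in against -0.42, -0.03 and -0.23 in wild type. Every knock-in array was above every wild-type array, though the gap between the groups was 0.10, smaller than the range within either. The difference was 0.38 (SE 0.13), or 1.31-fold, and with slide as a block it was 0.39 (SE 0.20). Over all genes, 7.87% had knock-in arrays wholly above the wild-type arrays and 12.5% wholly below. Among the 8 measured members these were 2 and 0. Since the members were proposed with this contrast known, nothing is read from that count.

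Bcl2l1 was read by a bright and a dim probe, which did not move together. The bright probe starts at base 2311 on chromosome 2 at 152606404 to 152606463 (minus strand). It scanned at 25300, 26300 and 26700 in knock-in against 15100, 20300 and 25300 in wild type. Scaled, the knock-in arrays lay within 0.035 of each other, at 4.84, 4.85 and 4.87, inside the wild-type values of 4.71, 5.13 and 4.94, and the difference was -0.07 (SE 0.13). The earlier probe, in coding sequence, scanned at 432, 443 and 455 in knock-in against 333, 148 and 373 in wild type. On this probe too the knock-in arrays were close together, at -1.03, -1.04 and -1.0002, while the wild-type arrays read -0.80, -1.97 and -1.14. The difference was 0.28 (SE 0.29), with wild-type replicate 2 far below the rest. Within each array the later probe exceeded the earlier one by 5.87, 5.89 and 5.87 in knock-in against 5.50, 7.10 and 6.09 in wild type (log2). The direction for Bcl2l1 therefore depended on the probe, and the mean of both probes gave 0.10. By the bright probe alone the difference was 0.03 without wild-type replicate 2 and -0.18 when wild-type replicate 1 was left out.

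The effectors that permeabilise the mitochondrion showed no separation of the groups. For Bax the probe starts at base 752 on chromosome 7 at 52717122 to 52717181 (minus strand). It scanned at 992, 1390 and 1160 in knock-in against 634, 330 and 1440 in wild type. The scaled values were 0.17, 0.61 and 0.34 against 0.13, -0.81 and 0.81, so the wild-type arrays spanned 1.62 and enclosed all the knock-in arrays. The difference of 0.33 (SE 0.39) was smaller than its error. It was -0.43 (SE 0.39) with slide as a block -0.09 without wild-type replicate 2 and 0.72 when wild-type replicate 3 was left out, so no direction can be given for Bax.

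For Bak1 the probe starts at base 1892 on chromosome 17 at 27156807 to 27156866 (minus strand) and scanned at 2030, 2190 and 2130 in knock-in against 1150, 1550 and 2010 in wild type. The scaled values were 1.20, 1.27 and 1.23 against 0.99, 1.42 and 1.29. The group means were 1.23 each. The knock-in arrays spanned 0.07 and the wild-type arrays 0.43, and the difference had an SE of 0.13.

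Of the BH3-only members, Bid was well above background on all 6 arrays and Bcl2l11 on none. Bid, whose product is cut by caspase-8 and then acts on mitochondria, was measured from base 1504 on chromosome 6 at 120843464 to 120843523 (minus strand). It scanned at 711, 713 and 884 in knock-in against 520, 542 and 883 in wild type. Scaled, it read -0.31, -0.35 and -0.04 against -0.15, -0.10 and 0.10. The groups overlapped through knock-in replicate 3, and the difference was -0.19 (SE 0.13), or -0.34 (SE 0.18) with slide as a block. It was -0.28 without knock-in replicate 3 and -0.11 when wild-type replicate 3 was left out.

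Bcl2l11, which encodes BIM, was not well above background. The later probe, in the BH3 stretch shown above, scanned at 13.7, 17.1 and 10.5 in knock-in against 10.2, 4.76 and 6.28 in wild type. The earlier probe, from base 450 with its bases spread over 127954736 to 127955417 on chromosome 2 (plus strand), scanned at 6.46, 7.57 and 5.55 against 4.80, 5.11 and 6.23. The lowest signal of any probe well above background was 17.2 to 23.0 depending on the array. Neither Bcl2l11 probe reached that level on any of the 6 arrays, so no fold is given, and a difference between groups was not detectable at this signal.

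**Figure D2:**
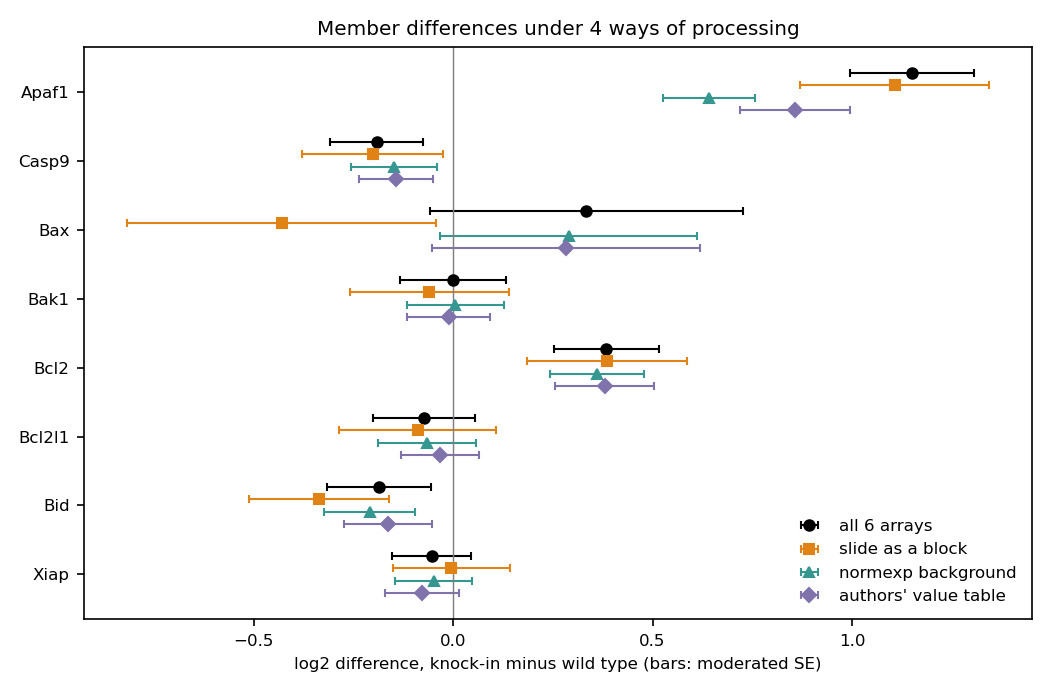
Log2 difference, knock-in minus wild type, of the 8 measured members under 4 ways of processing, with moderated standard errors from limma. Apaf1 lies between 0.64 and 1.15 and Bcl2 between 0.36 and 0.39, whereas Bax goes from 0.33 to -0.43 when slide is a block.

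Among the 8 measured members 3 differences were above 0 and 5 below, with a median of -0.03, beside a median of -0.05 over all genes. Of all genes 40.9% had a difference above 0. In limma's fit 0 of the 8 passed the adjusted p of 0.05, from which nothing is read, since the members were proposed with this contrast known.

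The array profiles of the other members were set beside that of Apaf1. Over the 6 arrays, Pearson's r with Apaf1 was 0.72 for Bcl2, 0.47 for Bax, -0.85 for Casp9 and -0.69 for Bid, and 0 members reached 0.9. Across all genes compared, 528 of 20975 reached 0.9, a small share, so nothing is read from the count among the members. These coefficients rest on 6 arrays that share the 2 slides and the 2 groups, and they describe the arrays only. The 5 genes with names other than clone or locus identifiers whose profile was most like that of Apaf1 were Bag3, Rasa2, Nedd9, Sos2 and Trim23, with r between 0.993 and 0.996.

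Bag3, a co-chaperone of HSP70, differed by 0.60 (SE 0.11) and Nedd9, an adhesion scaffold, by 0.51 (SE 0.11). Rasa2, which switches RAS off, differed by 0.60 (SE 0.12), Sos2, which switches it on, by 0.32 (SE 0.10), and the ubiquitin ligase gene Trim23 by 0.97 (SE 0.16). All 5 had their 3 knock-in arrays above the 3 wild-type arrays, and each had its lowest value in wild-type replicate 2, as Apaf1 did. With normexp correction the difference of Nedd9 was 0.31. Over the 16 alternatives the lowest difference was 0.54 for Bag3, 0.44 for Rasa2, 0.29 for Sos2 and 0.72 for Trim23. They were picked for likeness to a profile that separates the groups, so their differences are a description.

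**Figure D3:**
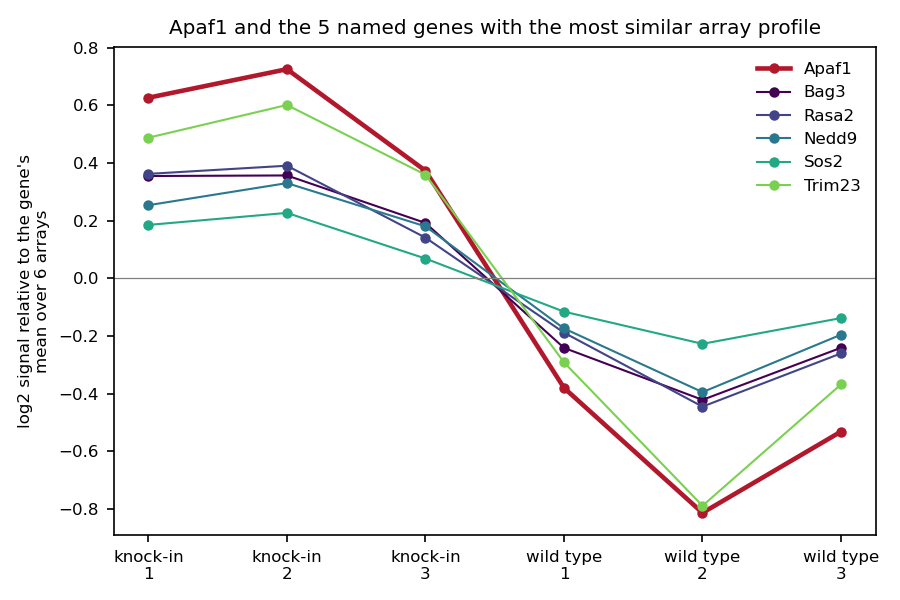
Log2 signal on each array relative to the gene's mean over the 6 arrays, for Apaf1 (thick red line) and the 5 most similar genes. Lines only join the values of 1 gene, since replicates have no order. The differences between groups go from 0.32 for Sos2 to 1.15 for Apaf1, and wild-type replicate 2 is the lowest array for each gene.

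Other genes of the death pathways, listed by role from textbook knowledge, were compared in the same fit. Of 71 listed genes 62 were measured, 21 higher and 41 lower in knock-in, with a median difference of -0.09. By limma 0 of the 62 passed the adjusted p of 0.05 (smallest adjusted p = 0.413). At an unadjusted p under 0.05 there were 7 higher and 5 lower, 19.4% of the list beside 10.9% of all genes (4.45% higher and 6.4% lower). The arrays of the groups did not overlap for 10 higher and 13 lower genes, 37.1% of the list beside 20.3% of all genes. With slide as a block the unadjusted counts were 0 higher and 3 lower, 4.84% of the list beside 4.27% of all genes. Without knock-in replicate 1 they were 3 and 1, 6.45% of the list beside 6.41% of all genes. In both settings the share of the list was close to that of all genes. Without wild-type replicate 2 it stayed above, at 14.5% (9 of 62) beside 9.09%. These settings were chosen after seeing the data. The list went both ways in most roles, and each gene named next had an adjusted p between 0.413 and 0.561.

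Among partners of cytochrome c and the apoptosome, 2 of 6 were higher. Diablo, whose product relieves caspases of XIAP, differed by 0.32 (SE 0.11) by its brighter probe, with both probes higher and the groups apart. Aifm1, a flavoprotein of the mitochondrial intermembrane space, differed by 0.15 (SE 0.10), also without overlap. Htra2, a mitochondrial serine protease, differed by -0.24 (SE 0.16), with overlap, and by -0.08 (SE 0.10) without wild-type replicate 2. With slide as a block Aifm1 differed by 0.07 (SE 0.14).

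Caspases went in both directions. Casp6, an executioner linked to axon degeneration, was wholly above wild type, at -0.74, -0.75 and -0.85 in knock-in against -1.003, -1.24 and -0.99, a difference of 0.30 (SE 0.11). The inflammatory caspase genes Casp1 (-0.46, SE 0.14) and Casp4 (-0.40, SE 0.19) were wholly below wild type, and Casp8, the initiator at death receptors, was wholly above it (0.23, SE 0.11). Acin1, a nuclear caspase substrate, differed by 0.51 (SE 0.16) and was wholly above. These values depended on the processing: Casp8 was at 0.0015 with normexp correction and 0.11 with slide as a block, and Acin1 at 0.28 with slide as a block. Casp4 was at -0.20 without wild-type replicate 2 and -0.12 with slide as a block.

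Relatives of Bcl2 differed among themselves. Of 5 measured anti-apoptotic relatives 3 were higher, among them Mcl1, a short-lived survival factor, by 0.22 (SE 0.10) without overlap, and Tmbim6, a membrane protein of the endoplasmic reticulum, by 0.22 (SE 0.12). Bag1, a BCL2-binding co-chaperone, was wholly below wild type (-0.24, SE 0.10), by -0.11 in the authors' value table. With slide as a block Tmbim6 was at 0.08, and by the mean of its probes Mcl1 was at 0.34. Of 5 measured genes for outer-membrane channels and effector-like relatives, 5 were lower and 4 wholly below. Over all genes 40.9% were above 0 and 12.5% wholly below, and this was 1 of 9 roles, so nothing particular to it is read from the count. Bcl2l13, a mitochondrial BCL2-like protein, read 1.65, 1.64 and 1.66 in knock-in against 1.92, 1.99 and 1.88 in wild type, a difference of -0.28 (SE 0.09). The channel genes Vdac1 and Vdac3 differed by -0.31 (SE 0.15) and -0.22 (SE 0.11). Vdac1 was at -0.16 without wild-type replicate 2, and Vdac3 at -0.12 with slide as a block. The median of these 5 genes was -0.22.

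**Figure D4:**
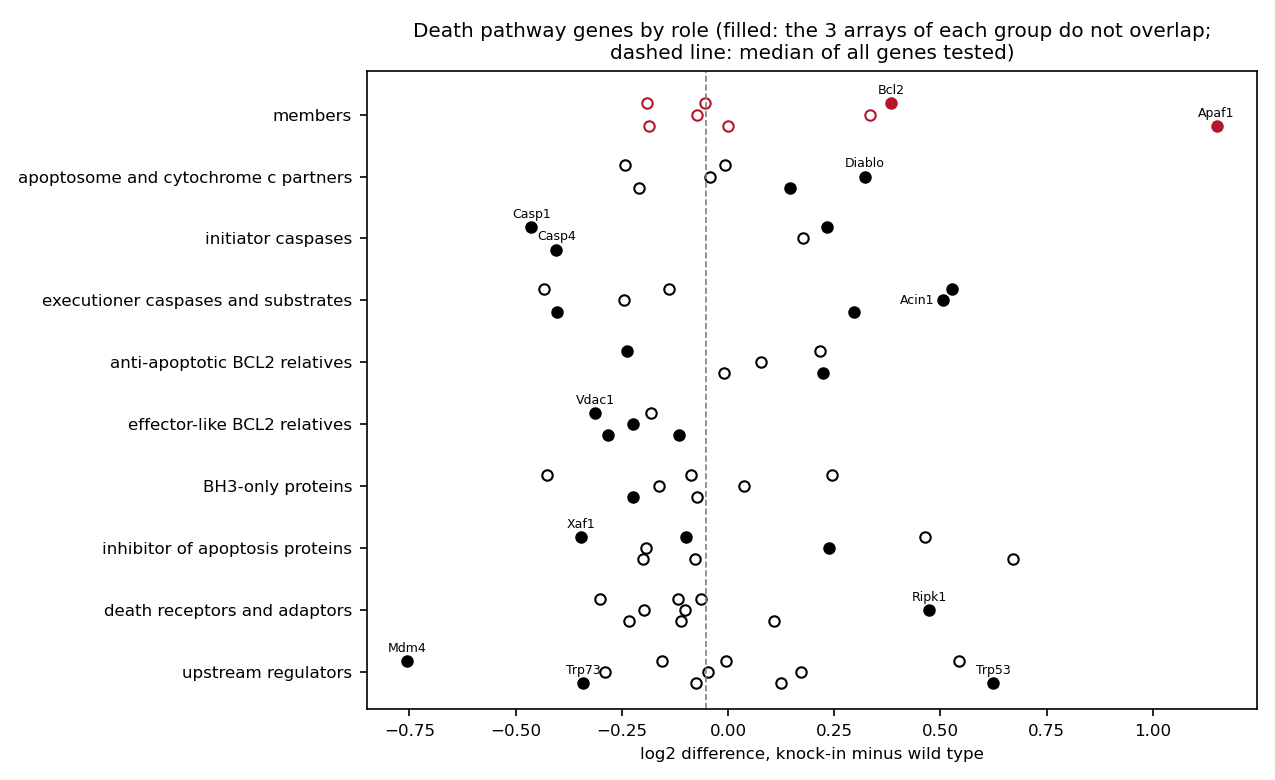
Log2 difference, knock-in minus wild type, of the 8 measured members (red) and of 62 other death pathway genes grouped by role. Filled points are genes whose groups do not overlap, 10 higher and 13 lower among the 62, and the dashed line is the median of all genes at -0.05.

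Of 7 measured BH3-only relatives, 2 were higher and 5 lower. The groups did not overlap for 1 of the 7, 14.3% beside 20.3% of all genes, so nothing particular to this role is read from it. Bnip3, which acts in mitophagy, was wholly below wild type (-0.22, SE 0.11), with 2 of its 3 probes lower, and by -0.10 in the authors' value table. Pmaip1, a p53-induced gene, differed by -0.43 (SE 0.26), and Bmf by 0.25 (SE 0.15), both with overlap. Leaving out 1 array gave -0.66 to -0.26 for Pmaip1 (lowest without wild-type replicate 1, highest without knock-in replicate 1) and 0.15 to 0.39 for Bmf (lowest without wild-type replicate 3, highest without wild-type replicate 1), and Bmf was at 0.08 with normexp correction.

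Inhibitors of apoptosis other than Xiap went both ways. Birc2, a ubiquitin ligase of the same family, differed by 0.24 (SE 0.10) without overlap. Xaf1, whose product antagonises XIAP, differed by -0.35 (SE 0.13) and was wholly below. Birc3 differed by 0.67 (SE 0.33) with overlap; only 1 wild-type array of 3 had it above background, and its sign turned with normexp correction and with slide as a block. It was at 0.42 without wild-type replicate 2 and 1.05 when wild-type replicate 3 was left out.

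At death receptors, Ripk1, a kinase of inflammatory and necroptotic signalling, had the smallest p of the list. It read -3.13, -3.19 and -3.19 in knock-in against -3.49, -3.91 and -3.52 in wild type, a difference of 0.47 (SE 0.14, limma's adjusted p = 0.413). With normexp correction the difference was 0.12 (SE 0.09). Of 9 measured genes of this role 7 were lower, among them Cflar, which restrains caspase-8 (-0.23, SE 0.16, with 2 of its 4 probes lower), and Tnfrsf10b, a receptor for TRAIL (-0.30, SE 0.15). Both overlapped between groups, and Tnfrsf10b was dim, well above background on only 2 of the 3 knock-in arrays. Cflar was at -0.09 without wild-type replicate 2 and -0.03 with slide as a block, and Tnfrsf10b at -0.19 in the authors' value table.

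Among upstream regulators, Trp53, which encodes p53, a transcriptional activator of Apaf1 and Bax, had no overlap between groups. It read -2.50, -2.19 and -2.46 in knock-in against -3.31, -3.08 and -2.64 in wild type, a difference of 0.62 (SE 0.19, limma's adjusted p = 0.414). It was 0.25 both with normexp correction (SE 0.11) and with slide as a block (SE 0.19). Mdm4, which restrains p53, differed by -0.76 (SE 0.35) by its brighter probe, without overlap, but its other probe had the opposite sign. Its wild-type values were -1.64, -0.49 and -1.88, and without replicate 2 the difference was -0.33. With slide as a block it was -0.21 (SE 0.43). Trp73, a relative of p53, differed by -0.34 (SE 0.11), wholly below wild type, and by -0.22 in the authors' value table.

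Markers of cell types and regions were set beside Apaf1, since some varied among the arrays. The 6 oligodendrocyte markers were all higher in knock-in on average, by 0.35, but 0 of them separated the groups: their mean relative to all 6 arrays was -0.03 to 0.39 in knock-in and -0.47 to 0.10 in wild type. The 6 astrocyte markers differed by 0.14 (-0.03 to 0.13 against -0.13 to 0.05), and 4 of them were higher. Of these, 2 were wholly higher, Gfap by 0.75 and Slc1a3 by 0.14, whereas Aqp4 (-0.18) and Aldh1l1 (-0.12) were lower with overlap. The 7 microglia markers differed by 0.10, with C1qa (0.32) and Tmem119 (0.20) wholly higher and Cx3cr1 (-0.26) wholly lower. The 7 neuronal and terminal markers differed by -0.14, with Rbfox3 (-0.32) and Stmn2 (-0.17) wholly lower. Among them Syp (0.05) and Tubb3 (0.05) were higher with overlap. The 5 endothelial markers differed by -0.32, with Cldn5 (-0.99) wholly lower and Pecam1 (0.15) higher with overlap. The 4 measured choroid plexus markers differed by 0.42 and the 2 markers of oligodendrocyte precursors by 0.08, with overlap for each. By limma 0 markers of any list passed the adjusted p of 0.05. Markers called wholly higher or wholly lower were picked for groups that did not overlap. Over all genes, 7.87% were wholly higher and 12.5% wholly lower. The 6 measured striatal markers varied most, at 1.99, 0.55 and -1.02 in knock-in against 1.40, -1.45 and -1.48 in wild type. Their mean difference of 1.02 was the largest of the lists. All 6 were higher in knock-in on average, and 0 of them separated the groups. The 4 genes listed as immature neuron markers went both ways, from 0.45 for Sox11 to -0.41 for Tbr1, with overlap for each. The part of these markers in the Apaf1 difference was not tested.

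**Figure D5:**
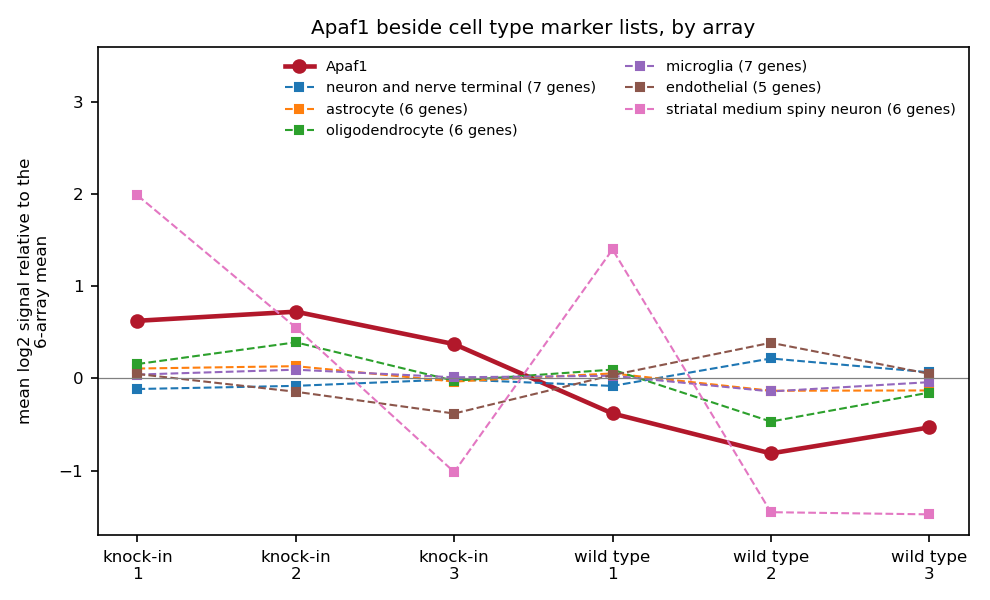
Log2 signal of Apaf1 (red) and mean log2 signal of 6 marker lists on each array, relative to the mean over the 6 arrays. Lines only join the values of 1 gene or list. Apaf1 separates the groups, whereas the striatal list is high in knock-in replicate 1 (1.99) and in wild-type replicate 1 (1.40).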

How the data were processed

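The authors' scanner files, per the file headers, hold an intensity per spot read with Agilent Feature Extraction 10.7.3.1. The processed intensity had its background subtracted and spatial trend removed by that software. It was not normalized between arrays. The authors also deposited a table in log2 units, with no normalization method named in the sources at hand. Control spots were left out. Log2 processed intensities were scaled by each array's 75th percentile. Probes well above background on at least 3 of 6 arrays were kept (29318), and a gene was its brightest kept probe. Groups were compared with limma 3.58.1 (lmFit and eBayes, two-sided, Benjamini-Hochberg over 20975 genes), checked on simulated data. Members are symbols in the array annotation. Other names came from RefSeq (GRCm38.p6 table, names only; 27235 probes by accession). Every member probe is given, with up to 3 genes of smallest p per role and the 5 genes most correlated with Apaf1. The values of 1 listed gene and the sequence of 1 probe are not reported here. The members and lists were chosen with earlier results of these data known. No spot was saturated. The few arrays limit precision. The labels give an input of 0.2 µg for 5 samples and 0.0 µg for knock-in replicate 1.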

Additional observations from a re-analysis of the deposited data

How the results depend on the processing

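Apaf1 was higher in knock-in under all 16 alternatives, at 0.64 after normexp correction, 0.86 in the authors' value table, and 1.03 to 1.25 when an array was left out. Casp9 and Bid stayed below 0 and Bcl2 above 0 under all 16, while the sign of Bax, Bak1 and Bcl2l1 turned under some. Xiap was between -0.079 and -0.0036, so no direction is read for it. The median over all genes was below 0 under each setting too. The members' median was -0.03, and 0.052 with the mean of a gene's probes; leaving out one array gave -0.06 to -0.0086. The number of genes past the adjusted p in limma was 2. It was 1 with normexp, 5 with scaling by the median of detected probes, with the mean of a gene's probes or with slide as a random block, and 7 with slide as a fixed block. It was 0 without a filter, with the filter tightened to all 6 arrays, with the authors' value table and with the replicate number as a block, and 0 to 3 on leaving out one array. The 6 settings with 0 had between 1906 and 3490 genes at an unadjusted p under 0.05. Whether the replicate numbers pair the samples cannot be settled with 3 arrays a group. Deviations from the group means correlated at 0.40, -0.02 and 0.25 for same-numbered arrays and at -0.40 to 0.15 for different numbers. Arrays numbered 1 and 3 correlated best with their own number, and those numbered 2 did not. Of the death pathway list 0 genes passed under any of the 16. Among the 27 genes of smallest p by role, 3 of 430 values changed sign: Birc3 was -0.16 with normexp and -0.089 with slide as a fixed block, and Cflar 0.18 with the mean of probes. In 21 of the 27, at least 1 alternative moved the value by over 1.5 times. The causes were not tested. Counts at the unadjusted p, chosen after seeing the data, were 5 higher and 4 lower in the list without wild-type replicate 2, 14.5% beside 9.09% of all genes. Signal over background limits Bcl2l11, which was not well above background, and Apaf1, which is dim.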
